A study of Mus musculus with 6 samples.

Results

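Transcript levels of 34 genes that make, take up, move and export cholesterol were examined in primary mouse fibroblasts that had either received the chemokine CXCL3 for 48 h or served as controls. The genes were taken by name from a table of TPM (the abundance of a gene as a share of all transcripts, corrected for gene length) that lists 51912 genes, and all 34 were found. They comprise 8 genes of the mevalonate steps, 11 genes from squalene to cholesterol, 5 genes that control the transcription factor SREBP, 5 genes of uptake and intracellular transport, and 5 genes of the liver X receptors (LXR) and export. The list does not hold every gene of the pathway, and genes outside it and outside the related lists below were not analysed here. Each group held 3 libraries of cells from mice aged 6 weeks. CXCL3 is a secreted chemokine, and the control cells carry the treatment label control and nothing more. The labels give neither the dose of CXCL3, the organ of origin nor a statement that replicates were separate cultures, so p-values measure the spread between these libraries, which may be technical. The series title places the comparison in work on CXCL3, myofibroblasts and pancreatic cancer spread.

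Cells make cholesterol from acetyl-CoA through mevalonate, farnesyl diphosphate and squalene. When sterol in the endoplasmic reticulum is low, the escort protein SCAP carries SREBP to the Golgi, where it is cut and released to switch on the genes of synthesis. When sterol is high, INSIG proteins hold SCAP back, and oxysterols activate LXR, which switches on the exporters ABCA1 and ABCG1. Fibroblasts run this circuit for membrane upkeep, and macrophages, which take in lipoprotein and dead cells, rely heavily on its export arm.

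SREBP acts at short promoter elements together with the factors that bind CCAAT boxes and GC boxes. Reference promoters from RefSeq (GRCm38.p6, from 250 bases before to 50 after a gene's start) were found for 28 of the 34 genes, with 37 promoters in all. No entry was found for Fdps, Fdft1, Sqle, Stard4, Npc1 and Abcg1. Both strands were searched for a core sterol regulatory element, TCACNCCAC, for the CCAAT box, CCAAT, for the GC box, GGGCGG, and for a pair of sites of the LXR type, GGTNA followed by 5 bases of any kind and again GGTNA. Matches to different motifs may overlap. The sterol element was found in 2.7% of the 37 promoters (Hmgcs1 alone) and in 1.24% of all 32851 promoters of the same length. With at most 1 mismatch it was found in 35.1% and 24.2%. The CCAAT box was found in 62.2% of the 37 and in 37.4% of all, and the GC box in 75.7% and 35.7%. The LXR-type pair was found for Abca1 and Srebf1 (5.41% of the 37, 0.718% of all). A match is a description of letters and does not show a site in use.

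The stretches before the start of 4 genes are shown 5′ to 3′ on the strand of the gene, with motif matches in capitals. Hmgcs1 is shown for its sterol element, Insig1 and Sc5d as genes whose libraries separated by group in the values below, and Abca1 for its LXR-type pair; these 4 were chosen after the values were seen. The windows of Hmgcs1 (chr13:119690101-119690350, plus strand), Sc5d (chr9:42264301-42264550, minus strand) and Abca1 (chr4:53159896-53160145, minus strand) hold 0 bases of annotated exons. For Insig1 (chr5:28071162-28071362, plus strand) the 49 bases nearest the start are exonic in GENCODE and are not shown.
Hmgcs1: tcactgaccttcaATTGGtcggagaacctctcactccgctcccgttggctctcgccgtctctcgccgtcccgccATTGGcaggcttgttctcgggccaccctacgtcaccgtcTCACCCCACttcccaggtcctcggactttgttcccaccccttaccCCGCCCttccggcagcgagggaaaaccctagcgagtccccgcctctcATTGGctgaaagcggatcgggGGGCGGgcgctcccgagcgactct
Insig1: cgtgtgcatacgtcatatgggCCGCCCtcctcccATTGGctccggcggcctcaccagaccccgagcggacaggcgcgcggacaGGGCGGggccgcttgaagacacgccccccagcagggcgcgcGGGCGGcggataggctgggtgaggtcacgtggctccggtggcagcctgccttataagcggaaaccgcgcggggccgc
Sc5d: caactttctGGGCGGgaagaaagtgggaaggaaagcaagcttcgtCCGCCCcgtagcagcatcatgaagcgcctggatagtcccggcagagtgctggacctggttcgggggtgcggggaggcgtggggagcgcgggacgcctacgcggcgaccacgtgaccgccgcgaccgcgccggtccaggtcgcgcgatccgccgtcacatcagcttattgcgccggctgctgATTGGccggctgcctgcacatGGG
Abca1: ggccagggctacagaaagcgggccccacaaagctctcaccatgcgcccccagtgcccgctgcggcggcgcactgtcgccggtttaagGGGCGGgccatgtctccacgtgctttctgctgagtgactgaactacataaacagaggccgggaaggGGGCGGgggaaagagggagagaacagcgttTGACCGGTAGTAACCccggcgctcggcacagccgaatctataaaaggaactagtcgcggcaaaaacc
In Hmgcs1 the sterol element TCACCCCAC begins 137 bases before the start, with CCAAT boxes (read as ATTGG on this strand) beginning 237, 176 and 45 bases before it. In Sc5d the last GC box begins 3 bases before the start and runs past it. In Abca1 the LXR-type pair lies on the opposite strand, beginning 67 bases before the start.

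The libraries were not alike within groups. The median SD of log2(TPM + 1) within the controls was 0.20, and within the CXCL3 libraries 0.086, over the 13139 genes tested (TPM of at least 1 in at least 3 libraries), and 0.18 and 0.092 over the 34 sterol genes. Control 1 and the CXCL3 libraries leaned towards long transcripts and controls 2 and 3 towards short ones (Spearman correlations across genes of a library's deviation with transcript length of 0.20 to 0.45 against -0.50 and -0.48). The median log2 fold change of CXCL3 against control ran from -0.11 in the 10% of genes with the shortest transcripts to 0.27 in the 10% with the longest. TPM keeps no read depth, so the depth is unknown and no counting interval is given.

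Markers of fibroblasts and of macrophages were both present. The 8 fibroblast markers summed to between 2786 and 3726 TPM in controls and between 3021 and 3131 TPM with CXCL3, although Lum stayed under 1 TPM throughout. Vim was the largest part, at 1563 TPM on average in controls and 1689 TPM with CXCL3. Of the 7 tested, 3 had log2 fold changes above 0 and 4 below, and 0 passed. Every CXCL3 library lay above every control for Vim and below every control for Dcn. The 12 macrophage markers, led by Lyz2, summed to between 15320 and 18322 TPM in controls and between 15012 and 15108 TPM with CXCL3, with 5 log2 fold changes above 0 and 7 below, of which 1 passed (C1qa, lower). Lyz2 made up most of that sum, at 14625 TPM on average in controls and 13186 TPM with CXCL3. Single markers lay in both directions: C1qa averaged 289 ± 38.6 TPM over the controls and 167 ± 5.46 TPM over the CXCL3 libraries, and Mrc1 averaged 11.5 ± 1.80 and 16.98 ± 1.02 TPM, with every CXCL3 library above every control (log2 fold change 0.53 ± 0.13, limma, adjusted p = 0.248). Every CXCL3 library also lay below every control for C1qa, C1qb, C1qc and Lyz2. The directions, though not the sizes, went with transcript length. The 5 markers above 0 had longest transcripts of 3238 bases or more, and the 7 below 0 of 2589 bases or less. Sizes varied among short transcripts: C1qa was at -0.78, C1qc at -0.45, Lyz2 at -0.14 and Cd68 at -0.054. The 10% of genes with the shortest transcripts had a median of -0.11. The cause of these directions was not tested. No macrophage marker was at 0 TPM. In RNA from bulk cultures, fewer cells of a type and less RNA per cell cannot be told apart, and the part of either cell type in the values below was not tested. Of the markers of other cells, 5 of 6 epithelial, 3 of 6 endothelial, 6 of 6 lymphocyte and 5 of 5 adipocyte genes stayed under 1 TPM in every library. The 6 smooth muscle and pericyte genes, of which 1 stayed under 1 TPM, summed to 17.5 to 20.8 TPM in controls and 17.6 to 18.5 TPM with CXCL3, most of it Des. Of 4 mesothelial genes 3 stayed under 1 TPM, and Wt1 averaged 28.2 ± 5.67 TPM over the controls and 30.3 ± 1.15 TPM over the CXCL3 libraries. Among 6 neutrophil genes 3 stayed under 1 TPM (S100a9, Ly6g and Cxcr2), and the list summed to 657 to 751 TPM in controls and 632 to 685 TPM with CXCL3. Most of that sum was S100a8, at 601 TPM on average in controls and 555 TPM with CXCL3.

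Most cholesterol synthesis genes had somewhat lower values with CXCL3, but no single sterol gene passed the test. The receptor gene Nr1h3 and the exporter gene Abcg1 had higher values, and both were low in level. Of the 34 genes 0 had an adjusted p below 0.05 (limma over 13139 genes, Benjamini-Hochberg), where 0.160% of all genes did (0.0304% higher and 0.129% lower). An unadjusted p under 0.05 was found for 8 of 34 (3 higher, 5 lower), against 11.6% of all genes (5.93% higher, 5.65% lower). The libraries of the groups did not overlap for 10 of 34 (3 higher, 7 lower), against 17.2% of all genes. Of the 19 synthesis genes 17 had a log2 fold change below 0, against 37.7% of all genes, and their median was -0.13, where that of all genes was 0.07. The genes were chosen with earlier results of these data known, so this count is a description and not a test. Among the 17, Acat2, Lss, Ebp, Fdft1 and Dhcr7 were close to 0 (-0.0026 to -0.043). The count was 14 of 19 without control 1, without control 3, and with libraries weighted by their agreement with the rest. Of the 5 LXR and export genes 5 had a log2 fold change above 0, against 62.3% of all genes, with a median of 0.26. Nr1h2 among them was level at 0.03 and negative with median-of-ratios scaling (-0.049), and Abca1 was at -0.38 against control 1 alone and at -0.0022 with the length and GC trend taken out. With that trend taken out, Abcg1 was at 0.17 and its groups overlapped. The summed TPM of the 19 synthesis genes was 332, 291 and 308 in controls 1, 2 and 3 and 279, 272 and 267 in CXCL3 libraries 1, 2 and 3. Each CXCL3 library lay below each control on this sum. The sum weighs abundant genes most, among them Fdps, Msmo1, Sc5d and Sqle, whose own groups separated.

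**Figure D1:**
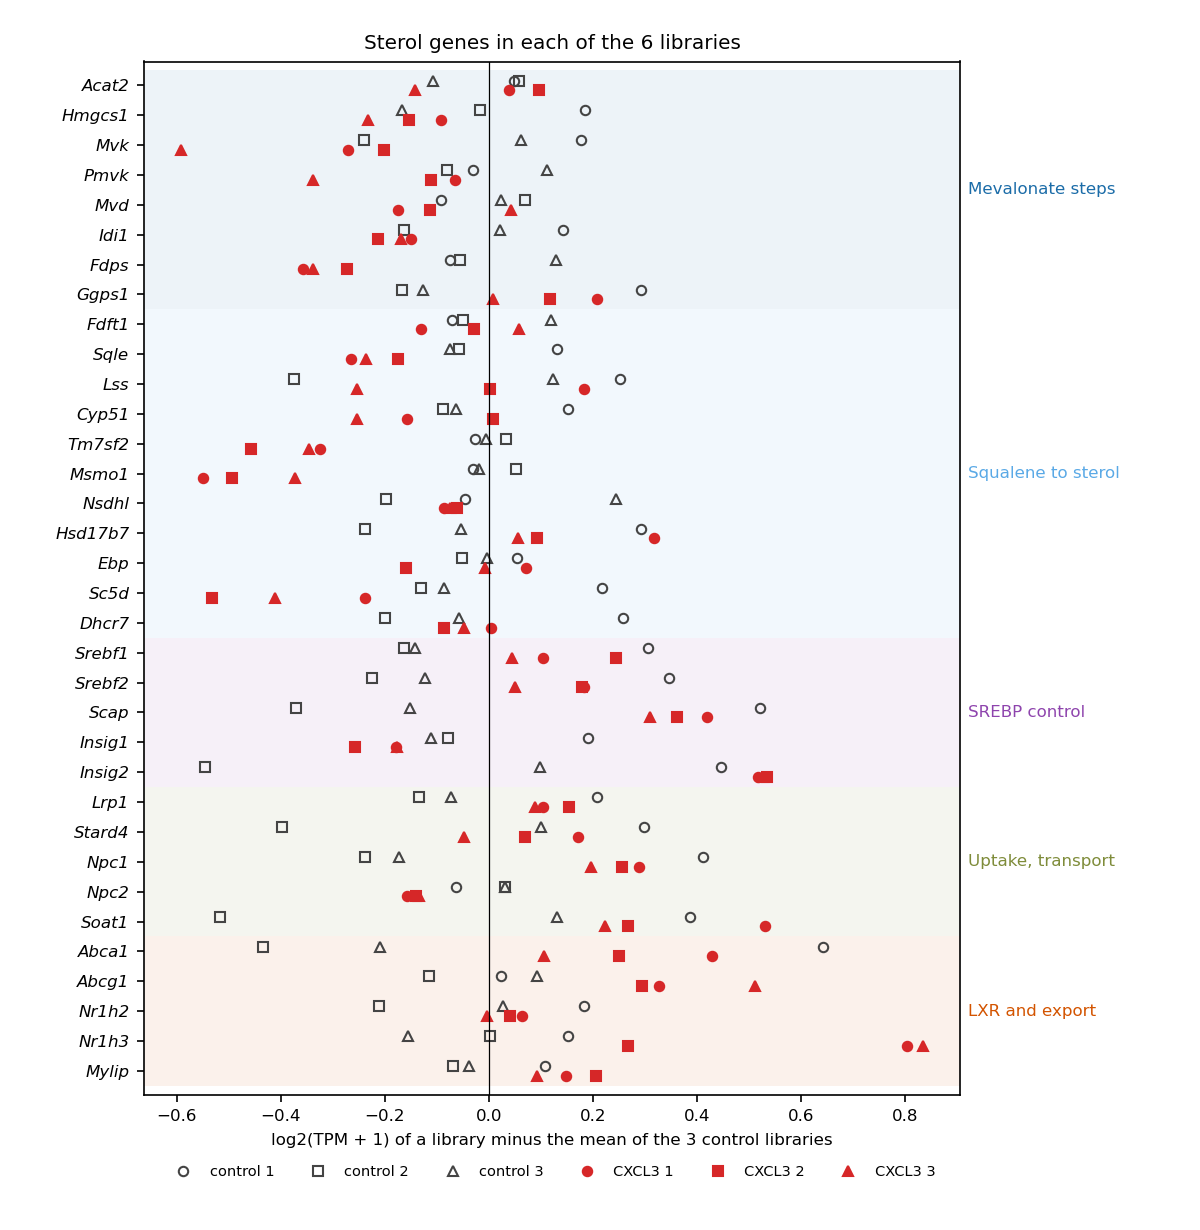
Each row is 1 sterol gene and each point 1 library: the x axis is log2(TPM + 1) minus the mean of the 3 control libraries, with open dark symbols for controls, filled red symbols for CXCL3, and the replicate number given by the shape. Msmo1, Tm7sf2, Fdps, Sqle and Sc5d show all 3 CXCL3 libraries left of all controls, Nr1h3, Abcg1 and Insig2 show them on the right, and in Scap, Npc1 and Abca1 they lie between control 1 and controls 2 and 3.

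The mevalonate steps build the isoprenoid farnesyl diphosphate, from which both sterols and protein prenyl groups are made. Of these 8 genes 7 had a negative log2 fold change, against 37.7% of all genes, with a median of -0.17. Separate groups were found for 1 gene, lower with CXCL3, as for 9.31% of all genes. That gene was Fdps, of farnesyl diphosphate synthase, at 41.4, 42.0 and 47.9 TPM in the controls and 33.9, 36.0 and 34.4 TPM with CXCL3. Every CXCL3 library lay below every control (43.8 ± 3.57 against 34.7 ± 1.09 TPM, mean ± SD, n = 3 each; log2 fold change -0.32 ± 0.09 SE; limma, adjusted p = 0.278). Mvk, of mevalonate kinase, stood at 13.6, 9.90 and 12.4 TPM in controls and 9.67, 10.2 and 7.54 TPM with CXCL3 (-0.35 ± 0.16, adjusted p = 0.445). Its groups overlapped, because control 2 lay within the CXCL3 range.

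Hmgcs1, of the cytosolic HMG-CoA synthase and the gene with the sterol element printed above, stood at 17.2, 14.8 and 13.3 TPM in controls and 14.03, 13.4 and 12.6 TPM with CXCL3. Its control mean was 15.1 ± 1.98 TPM and its CXCL3 mean 13.4 ± 0.70 TPM (log2 fold change -0.16 ± 0.12, adjusted p = 0.549), and the groups overlapped at control 3. Idi1, of isopentenyl diphosphate isomerase, stood at 7.64, 5.99 and 6.94 TPM in controls and 6.06, 5.75 and 5.96 TPM with CXCL3 (-0.18 ± 0.13, adjusted p = 0.536). Only CXCL3 library 1 reached into the control range. Pmvk, of phosphomevalonate kinase, gave 6.07 ± 0.50 against 5.29 ± 0.62 TPM (adjusted p = 0.560). Mvd, of the decarboxylase that follows it, gave 10.2 ± 0.64 against 9.56 ± 0.83 TPM (0.741). Acat2, of the cytosolic thiolase that opens the pathway, was level at 13.7 ± 0.92 and 13.6 ± 1.24 TPM, with a 95% interval of the log2 fold change from -0.27 to 0.27; its split of reads with the close paralog Acat3 is uncertain. Ggps1, of geranylgeranyl diphosphate synthase, which leaves the sterol route for protein prenylation, was the exception with a positive value, at 24.6, 17.6 and 18.2 TPM in controls and 23.2, 21.7 and 20.1 TPM with CXCL3 (0.11 ± 0.14, adjusted p = 0.703). All 3 CXCL3 libraries lay between control 1 above and controls 2 and 3 below.

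From squalene onward, 10 of 11 genes had a negative log2 fold change, with a median of -0.07, and 4 had separate groups, all lower. The share of all genes with every CXCL3 library below every control was 9.31%. Msmo1, of the oxygenase that removes the methyl groups at carbon 4 of the sterol ring, had the smallest p of the 34 and ranked 87 among all genes tested. It stood at 28.9, 30.7 and 29.1 TPM in controls and 19.9, 20.7 and 22.6 TPM with CXCL3. The groups were wide apart relative to their spread (29.6 ± 0.95 against 21.1 ± 1.40 TPM, 1.40-fold lower; log2 fold change -0.47 ± 0.09, 95% interval -0.68 to -0.26; adjusted p = 0.157). On GRCm38, Msmo1 (ENSMUSG00000031604) lies on chromosome 8 from 64718139 to 64733792 on the minus strand.

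Sc5d, of the C5 desaturase late in the route, stood at 30.2, 23.5 and 24.3 TPM in controls and 21.7, 17.6 and 19.2 TPM with CXCL3 (26.0 ± 3.66 against 19.5 ± 2.11 TPM; log2 fold change -0.39 ± 0.13, adjusted p = 0.351). Control 1 was the highest, and CXCL3 library 1 came closest to the controls without reaching them. Tm7sf2, of a C14 sterol reductase, stood at 6.34, 6.64 and 6.44 TPM in controls and 4.97, 4.44 and 4.88 TPM with CXCL3. Both groups were tight (6.47 ± 0.15 against 4.76 ± 0.28 TPM; -0.38 ± 0.12, adjusted p = 0.347), but Tm7sf2 overlaps Vps51 on the same strand (mean 30.02 TPM; log2 fold change -0.15), so its share of reads is uncertain. Sqle, of squalene epoxidase, a controlled step of the route, stood at 24.8, 21.6 and 21.3 TPM in controls and 18.6, 19.8 and 19.0 TPM with CXCL3 (22.6 ± 1.90 against 19.1 ± 0.65 TPM; -0.23 ± 0.10, adjusted p = 0.435). Its groups separated by a narrow margin, between control 3 and CXCL3 library 2.

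The other 7 genes of this stretch overlapped between groups. Cyp51, of lanosterol demethylase, gave 11.1 ± 1.13 against 10.04 ± 1.02 TPM (log2 fold change -0.13 ± 0.13). Nsdhl, of the C4 dehydrogenase that follows MSMO1, gave 8.25 ± 1.46 against 7.71 ± 0.08 TPM (-0.07 ± 0.15), and Hsd17b7, of the reductase after that, gave 5.10 ± 1.16 against 5.74 ± 0.67 TPM (0.16 ± 0.17). Differences between these enzymes of C4 demethylation and Msmo1 were not tested. Fdft1, of squalene synthase, gave 14.6 ± 1.15 against 14.2 ± 0.99 TPM, and overlaps the abundant Ctsb on the opposite strand (mean 1305 TPM). Lss, of lanosterol synthase, gave 6.04 ± 1.51 against 5.87 ± 1.03 TPM. Ebp, of the sterol isomerase, gave 22.03 ± 0.85 against 21.6 ± 1.80 TPM. Dhcr7, of the reductase that ends one branch in cholesterol, gave 31.0 ± 5.31 against 29.7 ± 0.97 TPM, the control spread coming from control 1 at 36.9 TPM. Adjusted p-values for the 7 ran from 0.616 (Cyp51) to 0.959 (Lss).

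**Figure D2:**
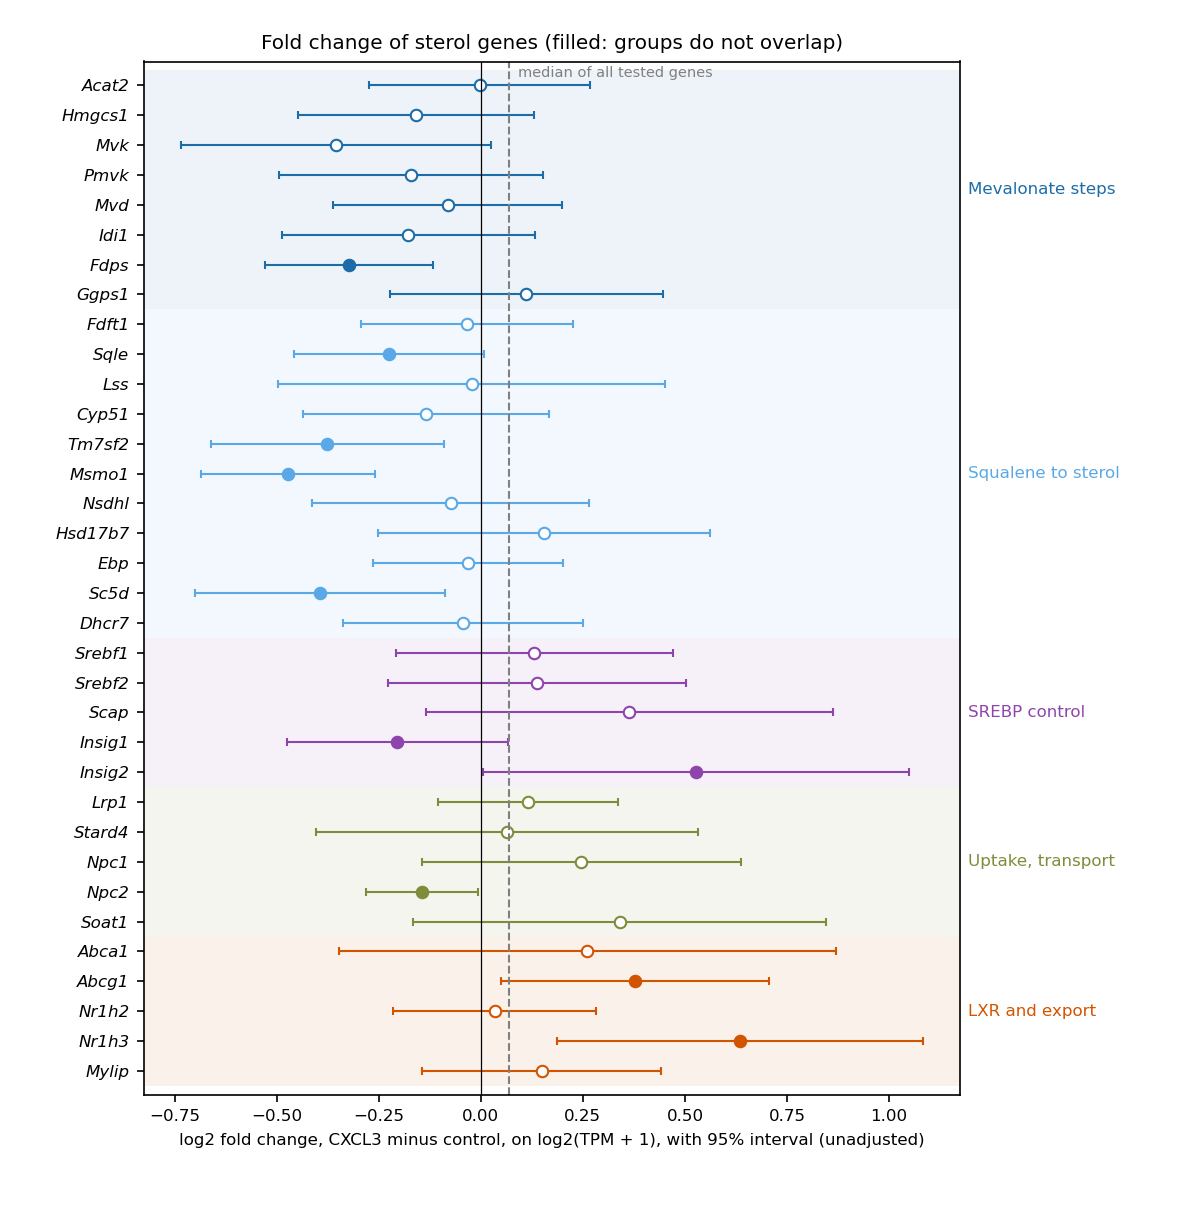
Each row is 1 sterol gene: the x axis is the log2 fold change of CXCL3 against control on log2(TPM + 1), bars are 95% intervals not adjusted for the number of genes, filled points mark genes whose groups did not overlap, and the dashed line is the median of all genes tested (0.07). Of the 19 synthesis genes 17 lie left of 0, led by Msmo1 at -0.47, and all 5 LXR and export genes lie right of it, led by Nr1h3 at 0.63.

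Of the 5 genes of SREBP control 4 had a positive log2 fold change, against 62.3% of all genes, with a median of 0.14. That median was 0.31 without control 1, 0.049 without control 2, 0.076 without control 3 and -0.045 with the length and GC trend taken out. Srebf1 and Srebf2 encode the SREBP precursors. Srebf1 stood at 27.8, 19.8 and 20.1 TPM in controls and 24.1, 26.6 and 23.1 TPM with CXCL3 (log2 fold change 0.13 ± 0.15, adjusted p = 0.660). Srebf2 stood at 27.3, 18.1 and 19.4 TPM in controls and 24.3, 24.2 and 22.05 TPM with CXCL3 (0.14 ± 0.16, adjusted p = 0.665). For both, the 3 CXCL3 libraries lay below control 1 and above controls 2 and 3. The ratio of Srebf1 to Srebf2 in TPM was 1.05 ± 0.041 in controls and 1.05 ± 0.055 with CXCL3. Scap, of the sterol-sensing escort, showed the same order of libraries with a wider gap, at 28.9, 15.1 and 17.8 TPM in controls and 26.9, 25.8 and 24.8 TPM with CXCL3 (0.36 ± 0.21, adjusted p = 0.481).

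The INSIG genes, whose proteins both hold SCAP in the endoplasmic reticulum, lay in opposite directions. Insig1, itself a known SREBP target, stood at 20.6, 16.9 and 16.5 TPM in controls and 15.7, 14.8 and 15.7 TPM with CXCL3. Every CXCL3 library lay below every control (18.0 ± 2.24 against 15.4 ± 0.52 TPM; log2 fold change -0.20 ± 0.12, adjusted p = 0.478). Insig2, which is not driven by SREBP in the same way, stood at 44.2, 21.7 and 34.5 TPM in controls and 46.5, 47.0 and 46.7 TPM with CXCL3. The CXCL3 libraries agreed closely and lay just above control 1, while the controls spread widely (33.5 ± 11.3 against 46.7 ± 0.28 TPM; 0.53 ± 0.22, adjusted p = 0.428). The ratio of Insig2 to Insig1 was 2.15, 1.29 and 2.09 in controls and 2.96, 3.18 and 2.97 with CXCL3, with no overlap. This ratio was chosen after the values were seen and carries no test. Both longest transcripts are annotated at 2697 bases.

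Uptake and transport genes showed mixed values. Lrp1, of a large endocytic receptor for lipoprotein remnants and many other ligands, was second in level among the 34 genes at 782, 617 and 643 TPM in controls and 727, 753 and 720 TPM with CXCL3 (log2 fold change 0.12 ± 0.09, adjusted p = 0.562). Its CXCL3 libraries lay between control 1 and the other controls. Npc2 and Npc1 encode the soluble and the membrane protein that pass cholesterol out of the lysosome. Npc2 had the highest level of the 34, at 1109, 1185 and 1184 TPM in controls and 1039, 1051 and 1055 TPM with CXCL3. Its groups did not overlap, by a difference of 1.11-fold (1159 ± 43.3 against 1049 ± 8.70 TPM; -0.14 ± 0.06, adjusted p = 0.422). Npc1 stood at 52.9, 33.3 and 34.9 TPM in controls and 48.4, 47.3 and 45.4 TPM with CXCL3 (0.25 ± 0.17, adjusted p = 0.509), again between control 1 and controls 2 and 3, and it overlaps Rmc1 on the opposite strand (mean 49.3 TPM).

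Soat1, which encodes the enzyme that esterifies cholesterol for storage, stood at 115, 61.2 and 96.5 TPM in controls and 128, 106 and 103 TPM with CXCL3 (log2 fold change 0.34 ± 0.22, adjusted p = 0.50). Control 2 was the low library and the groups overlapped. Stard4, of a soluble sterol carrier and a known SREBP target, was among the lowest of the 34 at 4.86, 2.62 and 4.11 TPM in controls and 4.37, 4 and 3.61 TPM with CXCL3 (0.06 ± 0.20, adjusted p = 0.881), and its groups overlapped.

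On the export side, the receptor gene Nr1h3 and the exporter gene Abcg1 had separate groups, both higher with CXCL3, where 7.92% of all genes had every CXCL3 library above every control. Nr1h3, which encodes LXR alpha, the LXR of macrophages, liver and fat, stood at 3.94, 3.45 and 2.99 TPM in controls and 6.75, 4.35 and 6.92 TPM with CXCL3. CXCL3 library 2 lay close above control 1 and the other 2 CXCL3 libraries lay well above all controls (3.46 ± 0.48 against 6.01 ± 1.44 TPM, 1.74-fold; log2 fold change 0.63 ± 0.19, 95% interval 0.19 to 1.08; adjusted p = 0.313). On GRCm38, Nr1h3 (ENSMUSG00000002108) lies on chromosome 2 from 91184061 to 91202834 on the minus strand. Abcg1, whose protein passes cholesterol to HDL, stood at 3.39, 2.99 and 3.61 TPM in controls and 4.42, 4.30 and 5.16 TPM with CXCL3 (3.33 ± 0.31 against 4.63 ± 0.47 TPM; 0.38 ± 0.14, adjusted p = 0.391). Of the 12 macrophage markers, 5 had log2 fold changes above 0 and 7 below, as given above. The part of macrophages in these values was not tested.

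Nr1h2, which encodes LXR beta, the widely expressed form, was far above Nr1h3 in every library, at 73.8, 55.9 and 66.2 TPM in controls and 67.9, 66.8 and 64.7 TPM with CXCL3 (log2 fold change 0.03 ± 0.11, adjusted p = 0.880). The ratio of Nr1h2 to Nr1h3 was 18.7, 16.2 and 22.1 in controls and 10.1, 15.4 and 9.36 with CXCL3, and no CXCL3 library reached the control range. As Nr1h2 was level, this ratio restates the difference in Nr1h3, and it carries no test. Abca1, of the exporter to lipid-poor apolipoprotein A-I and the gene with the LXR-type pair printed above, stood at 36.8, 17.0 and 20.0 TPM in controls and 31.6, 27.8 and 25.1 TPM with CXCL3 (0.26 ± 0.26, adjusted p = 0.627). It followed the order of Scap and Npc1, with control 1 highest and controls 2 and 3 lowest, and its annotated transcript is long at 10262 bases. Mylip, of a ubiquitin ligase that LXR induces to remove lipoprotein receptors, stood at 5.93, 5.13 and 5.27 TPM in controls and 6.13, 6.42 and 5.86 TPM with CXCL3 (0.15 ± 0.13, adjusted p = 0.572), with CXCL3 library 3 inside the control range.

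The control library used as the reference set the direction for part of the list. In 7 of 34 genes (Ggps1, Srebf1, Srebf2, Scap, Lrp1, Npc1 and Abca1) all CXCL3 libraries lay between control 1 above and controls 2 and 3 below, which held for 22.2% of all genes. Without control 1, limma called 12 of the 34. Of these 8 were higher (Srebf1, Srebf2, Scap, Insig2, Lrp1, Npc1, Abca1 and Nr1h3), where that fit called 25.2% of all genes higher. The other 4 were lower (Fdps, Tm7sf2, Msmo1 and Npc2), where it called 7.17% lower. Against control 1 alone, Srebf1, Srebf2, Scap, Lrp1, Npc1 and Abca1 had negative values, from -0.09 for Lrp1 to -0.38 for Abca1. That fit takes its spread from the CXCL3 libraries. In it 68.9% of all genes were negative, with a median of -0.079. Msmo1 kept its value whichever controls were used, at -0.49 without control 1 (adjusted p = 0.00823) and -0.44 against control 1 alone (0.153). Nr1h3 was at 0.71 without control 1 (adjusted p = 0.0346) and 0.48 against it alone (0.421), and Abcg1 at 0.39 (0.0627) and 0.35 (0.369). Insig2 was at 0.75 without control 1 and at 0.079 against it alone. With libraries weighted by their agreement with the rest, 3 of 34 were called higher (Scap, Insig2 and Npc1; 7.96% of all genes) and 2 lower (Fdps and Msmo1; 3.04% of all genes).

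**Figure D3:**
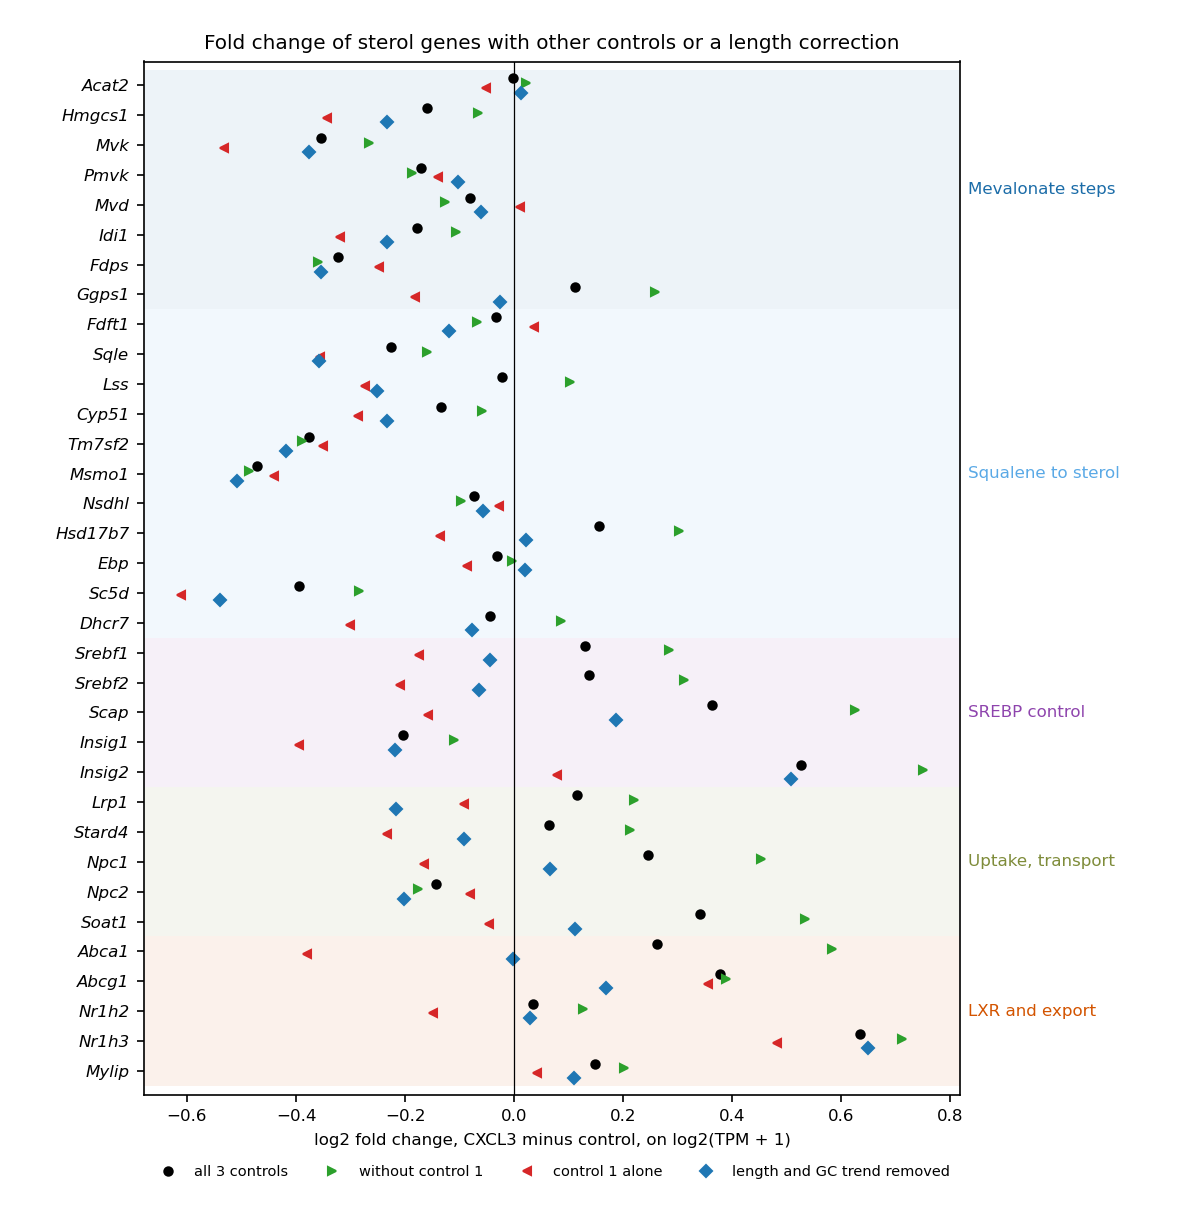
Each row is 1 sterol gene: the x axis is the log2 fold change of CXCL3 against control with all controls (black circles), without control 1 (green triangles), against control 1 alone (red triangles), and with the trend of each library with length and GC content taken out (blue diamonds). Msmo1, Tm7sf2, Fdps and Nr1h3 keep their sign in all 4, while Srebf1, Srebf2, Scap, Lrp1, Npc1 and Abca1 run from positive without control 1 to negative against control 1 alone.

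Transcript length differed between the roles. The median length of the longest annotated transcript was 3027 bases for the synthesis genes and 3065 bases for the LXR and export genes. It was 4227 bases for the SREBP control genes and 5756 bases for the uptake and transport genes, against 3213 bases for all genes tested. Within synthesis it was 2666.5 bases for the mevalonate steps and 3698 bases from squalene onward. With the length and GC trend taken out of each library, 16 of 19 synthesis genes had negative values, with a median of -0.23 (Acat2 and Ebp turned positive and Ggps1 negative), where the median of all genes was -0.0015. Msmo1 was then at -0.51 (adjusted p = 0.0818), Sc5d at -0.54 (0.0699), Tm7sf2 at -0.42 and Sqle at -0.36 (0.113). Nr1h3 was at 0.65 (0.182) and Insig2 at 0.51 (0.292), while Abcg1 was at 0.17 (0.627), Abca1 at -0.0022 and Lrp1 at -0.22. Again 0 of 34 passed. Scaling by the median of ratios moved the median of all genes from 0.07 to -0.0047 and that of the synthesis genes to -0.21, with 17 of 19 negative. The count was 14 of 19 without control 1, without control 3 and with library weights, 15 without CXCL3 library 3, and 16 or 17 in the other settings run.

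**Figure D4:**
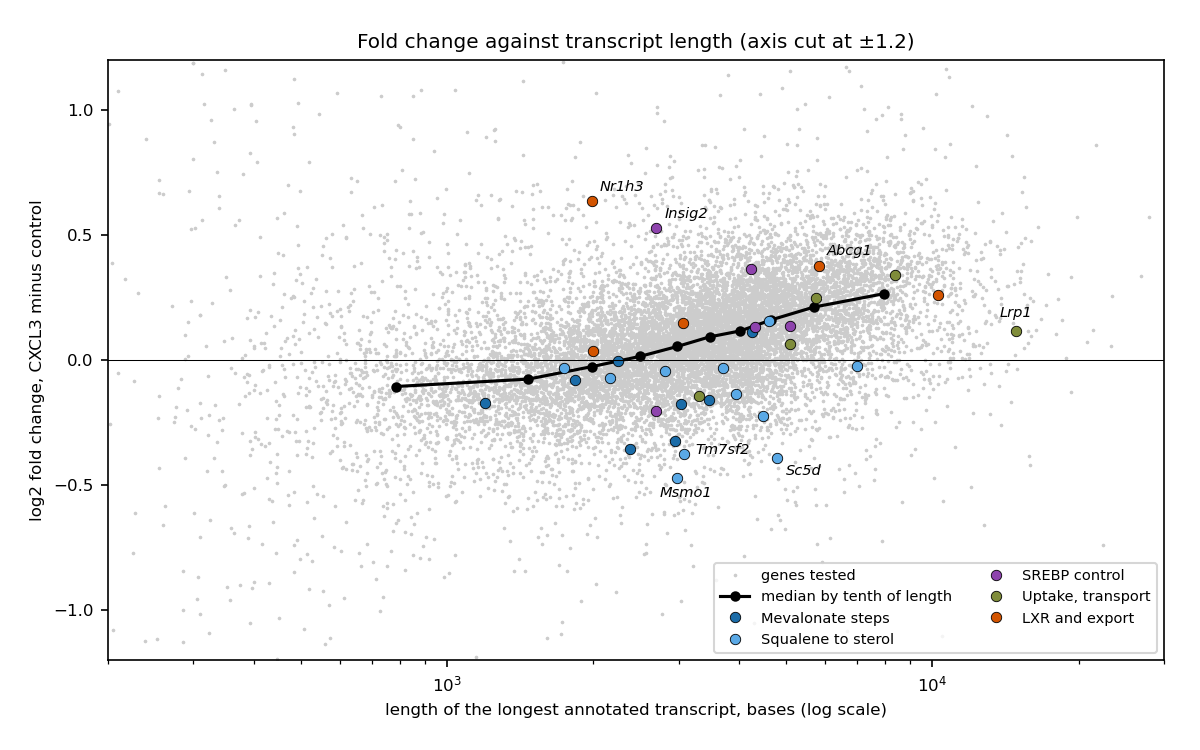
Each point is 1 gene: the x axis is the length of its longest annotated transcript on a log scale, the y axis its log2 fold change of CXCL3 against control, grey for all genes tested and coloured by role for the sterol genes; the black line joins the medians of 10 equal groups of genes by length, and genes beyond the axis limits are not drawn. The line runs from -0.11 to 0.27, Msmo1, Tm7sf2 and Sc5d lie far below it, Nr1h3 and Insig2 lie far above it, and Lrp1 at 14888 bases lies below the level of the group with the longest transcripts.

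Related genes outside the 34 were read from lists of the same biology. Over all genes tested, 62.3% were positive and 0.160% passed, with a median of 0.07, and each list below is to be read against these. Of 10 genes that process or degrade parts of the SREBP system, 9 had a positive log2 fold change and 0 passed, with a median of 0.17. The 3 with the smallest p were Sec24c, of the coat that carries SCAP and SREBP from the endoplasmic reticulum (33.99 ± 8.72 against 41.1 ± 1.77 TPM, log2 fold change 0.29), and Mbtps2 (0.45) and Mbtps1 (0.23), of the Golgi proteases that cut SREBP. All 3 had control 1 above the CXCL3 libraries. With the length and GC trend taken out, Sec24c was at 0.16, Mbtps2 at 0.29 and Mbtps1 at 0.0031. Of 14 tested genes of fatty acid synthesis and other SREBP targets, 10 were positive and 0 passed, with a median of 0.07. Fasn, of fatty acid synthase, stood at 54.4, 49.2 and 58.0 TPM in controls and 63.7, 63.0 and 63.2 TPM with CXCL3 (0.23 ± 0.08, adjusted p = 0.375), with every CXCL3 library above every control, but its value was -0.077 with the length and GC trend removed. Tmem97, of a sterol-regulated membrane protein that binds NPC1, stood at 22.2, 23.7 and 29.1 TPM in controls and 21.3, 20.8 and 18.6 TPM with CXCL3 (-0.29 ± 0.12, adjusted p = 0.429), below every control. Acly, of the enzyme that makes cytosolic acetyl-CoA, gave 68.8 ± 19.5 against 83.2 ± 4.14 TPM (0.30).

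Of 13 genes of the isoprenoid branch, which makes ubiquinone, dolichol and prenyl groups, 7 were positive and 0 passed, with a median of 0.01. Over all genes 62.3% were positive, as given above. The 3 with the smallest p were Icmt, of the methyltransferase of prenylated proteins (0.28), Pdss1, of a subunit of the enzyme that makes the ubiquinone tail (0.22), and Pggt1b, of geranylgeranyl transferase (0.33). Of 17 tested genes of sterol transport and lipoprotein uptake, 15 were positive and 0 passed, with a median of 0.11. Osbpl8, of an oxysterol-binding protein (20.96 ± 8.17 against 29.8 ± 2.78 TPM, 0.54), Vldlr, of a lipoprotein receptor (0.43), and Nceh1, of a cholesteryl ester hydrolase (0.30), had the smallest p. With the length and GC trend taken out, Osbpl8 was at 0.33, Vldlr at 0.21 and Nceh1 at 0.17. Of 11 tested genes of oxysterol and LXR biology, 7 were positive and 0 passed, with a median of 0.15. Smpdl3a, of an LXR-induced phosphodiesterase, stood at 143, 137 and 143 TPM in controls and 122, 123 and 123 TPM with CXCL3, below every control (-0.20 ± 0.06, adjusted p = 0.313), the direction opposite to that of Abcg1. Nrip1, of a nuclear receptor corepressor, stood at 874, 1017 and 945 TPM in controls and 1095, 1127 and 1034 TPM with CXCL3, above every control (0.20 ± 0.08, adjusted p = 0.391). Cyp7b1, of an oxysterol hydroxylase, stood at 8.91, 10.3 and 9.13 TPM in controls and 7.08, 7.21 and 9.02 TPM with CXCL3 (-0.26 ± 0.14, adjusted p = 0.471), with CXCL3 library 3 inside the control range. These 15 genes were picked by their small p. Without control 1, limma called 8 of the 15 higher (Sec24c, Mbtps2, Mbtps1, Acly, Icmt, Osbpl8, Vldlr and Nceh1) and 2 lower (Tmem97 and Smpdl3a). That fit called 25.2% of all genes higher and 7.17% lower. Against control 1 alone those 8 had negative values, as had 68.9% of all genes.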

How the data were processed

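RNA was sequenced from 3 control and 3 CXCL3 libraries of primary mouse fibroblasts. The authors deposited TPM for 51912 genes, 1 column a library, and 0 columns belong to other samples. Fastp, HISAT, RSEM and the build GRCm38.p5 appear in the submitters' processing notes, with no version and no order. For annotation and filters, the sources used here state nothing. TPM keeps no depth, is a share of all transcripts, and moves with how evenly long and short transcripts were sampled. RSEM divides reads between overlapping or similar genes: 7 of the 34 genes overlap a gene with a mean above 1 TPM.

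Identifiers were matched to GENCODE mouse M21 (GRCm38), which gave symbols for 51719 genes and a longest transcript length for 13114 of the 13139 tested. Genes reaching 1 TPM in 3 or more of the 6 libraries were fitted as log2(TPM + 1) by limma 3.58.1 under R 4.3.3 (eBayes with trend). Tests of CXCL3 minus control were two-sided, p-values were adjusted by Benjamini-Hochberg over every gene fitted, and the threshold was 0.05. All 34 sterol genes passed the filter. A fold change on this scale understates that of low genes. The smallest p of an exact permutation test at this size is 0.1, so none was used. No 2 columns were identical. The fit was tested on simulated data.

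The sterol genes, their roles and the related lists were chosen with earlier results of these data known. Named were all 34 sterol genes, up to 3 genes with the smallest p in each related list, and single cell type markers. Counts and medians of lists are descriptions, without a test of the list. One gene of a related list is not reported here and stays out of that list's counts. The fit was repeated in 16 other ways: other pseudocounts (0.1 and 5), no filter, a 5 TPM minimum, scaling by the median of ratios, taking out the length and GC trend of every library (loess, span 0.3), library weights from arrayWeights (whose fit stopped before full convergence), eBayes without trend, the replicate number as a block, without each library in turn, and without controls 2 and 3.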

Additional observations from a re-analysis of the deposited data

How the results depend on the processing

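Of the 34 sterol genes 0 passed in all settings but library weights (3 higher, 2 lower: Scap, Insig2 and Npc1, Fdps and Msmo1) and leaving out control 1; over the 6 fits that leave out 1 library the count ran from 0 to 8 higher and from 0 to 4 lower. Over all genes these 6 fits called 0 to 3312 higher and 0 to 942 lower, the highest both without control 1. Library weights called 1046 higher and 400 lower, no filter 0 and 0 (1928 genes at an unadjusted p under 0.05), median-of-ratios scaling 0 and 4, removal of the length and GC trend 16 and 33, eBayes without trend 0 and 1, and the fit without controls 2 and 3 called 32 and 52. With the replicate number as a block 3 genes were called higher and 9 lower, and 0 of the 34. Nothing in the labels says that the numbers pair the libraries. Deviations of same-numbered libraries correlated at 0.12, -0.011 and 0.077, and those of other pairs at -0.17 to 0.13. Controls 1 and 3 correlated best with the CXCL3 library of their own number, and control 2 with CXCL3 library 3 (0.13). With 3 libraries in each group these correlations can neither show nor exclude a pairing. Without 1 library the median of the genes from squalene onward ran from -0.18 to -0.068, that of the SREBP control genes from 0.049 to 0.31 and that of the LXR and export genes from 0.11 to 0.39. Median-of-ratios scaling gave -0.24 for the mevalonate genes. Removal of the length and GC trend gave -0.23 for all synthesis genes, -0.23 for those from squalene onward, -0.045 for SREBP control and 0.11 for LXR and export. Against control 1 alone the median of all genes was -0.079. There it was -0.27 for all synthesis genes, -0.29 from squalene onward, 0.042 for LXR and export and -0.18 for SREBP control.

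Single genes changed sign as follows (log2 fold change), and the cause was not tested. Of all genes, 68.9% were negative against control 1 alone. Median-of-ratios scaling gave Nr1h2 -0.049. Library weights gave Acat2 0.047, Lss 0.041 and Dhcr7 0.030. Removal of the length and GC trend gave Acat2 0.013, Ggps1 -0.025, Ebp 0.021, Srebf1 -0.045, Srebf2 -0.065, Lrp1 -0.22, Stard4 -0.091, Abca1 -0.0022, Fasn -0.077 and Nrip1 -0.018. Against control 1 alone, Mvd was at 0.011, Ggps1 -0.18, Fdft1 0.037, Hsd17b7 -0.14, Srebf1 -0.18, Srebf2 -0.21, Scap -0.16, Lrp1 -0.092, Stard4 -0.23, Npc1 -0.17, Soat1 -0.046, Abca1 -0.38 and Nr1h2 -0.15, and Sec24c -0.096, Mbtps2 -0.22, Mbtps1 -0.20, Acly -0.13, Icmt -0.043, Pggt1b -0.11, Osbpl8 -0.032, Vldlr -0.087 and Nceh1 -0.032. Over the fits without 1 library, Acat2 ran from -0.056 to 0.067, Lss -0.21 to 0.10, Dhcr7 -0.14 to 0.085, Stard4 -0.13 to 0.21, Nr1h2 -0.071 to 0.13, Fdft1 -0.079 to 0.027, Nsdhl -0.17 to 0.048 and Ebp -0.083 to 0.032. Fdps, Sqle, Tm7sf2, Msmo1, Sc5d, Insig1, Insig2, Npc2, Abcg1 and Nr1h3 kept their sign in every setting in which they were tested. These are the 10 genes with separate groups, so leaving out or weighting libraries could not reverse them. Only scaling or removal of the length and GC trend could. Hmgcs1, Mvk, Pmvk, Idi1, Cyp51 and Mylip, whose groups overlapped, also kept their sign in every setting.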
